A study of Mus musculus with 3 samples.

Results

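The genes described here are 9 components of cytokine signalling, Jak1, Jak2, Jak3, Stat3, Stat4, Stat5b, Socs1, Socs3 and Cish, chosen by name out of 32285 genes counted. They were followed across 5 classes of leukocytes from the pancreatic islets of NOD mice, a strain that develops autoimmune diabetes spontaneously. RNA of single cells was sequenced in 3 libraries (replicates 1, 2 and 3) of 1 group: live CD45+ cells sorted from dispersed islets of female, wild-type NOD mice. Islets of 2 to 3 mice aged 15 to 16 weeks were pooled for each library, so a library is not a single mouse, and there is no other genotype or treatment.

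Many cytokine receptors have no kinase of their own. Janus kinases (JAKs) bound to the receptor tails phosphorylate the receptor and the STAT proteins, which pair, move to the nucleus and switch on target genes. Among those targets are the SOCS proteins and CISH, which bind the receptors or kinases and damp the signal that induced them. In insulitis, interferons and interleukins act through this pathway on the T cells, B cells and macrophages that gather in the islet.

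A cell was considered if it had at least 1000 unique molecular identifiers (UMIs, each a counted RNA molecule) and under 10% mitochondrial UMIs, which kept 26142 of 26947 cells. CD8 T cells had at least 1 Cd3e UMI, at least 2 of Cd8a and Cd8b1 together and none of Cd4. CD4 T cells had Cd3e and Cd4 UMIs and none of Cd8a, Cd8b1 or Foxp3. Regulatory T cells (Treg) had Cd3e and Foxp3 UMIs, B cells at least 2 Cd79a UMIs and no Cd3e, and macrophages at least 5 UMIs of C1qa and C1qb, no Cd3e and at most 1 Cd79a UMI. The classes held 3199 CD8 T cells, 5858 CD4 T cells, 1612 Treg, 4936 B cells and 68 macrophages, while 59 cells that met the rules for both CD8 T cells and Treg were left out. Another 10410 cells met the rule of no class, so 15673 cells were used.

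Levels are in CPM, the UMIs of a gene scaled to a common total of 1000000 UMIs in a class of a library, given in the order of replicates 1, 2 and 3 and as mean ± SD (n = 3 libraries). Differences between classes are log2 fold changes, with their standard error (SE), from a quasi-likelihood test in edgeR on the summed counts, with the library as a block. Adjusted p-values cover all 12099 genes tested, or 10768 in the comparisons by Pdcd1, and 0.05 was the threshold for a call. The fold changes are on the scale of edgeR's TMM normalization. With plain library totals, which CPM values use, the median fold change of all genes was 0.18 for Treg against CD8 T cells, -0.23 for B cells against Treg, and 0.17 for PD-1+ against PD-1- cells in both CD8 and CD4 T cells, instead of near 0. Ratios of CPM values therefore depart from the fold changes. All 9 genes passed the low-count filter in both sets of sums. Different genes are not ranked against each other, because the level of a gene also depends on how its transcript is captured.

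The libraries held 5844, 9537 and 11566 cells and 33851381, 74775394 and 80806452 UMIs. From 12 to 29 cell barcodes were shared between any pair of libraries, and none by all 3. Replicate 1 stood apart: the summed level of 4 cell cycle genes was 569 to 838 CPM in its T cell classes and 56.7 to 117 CPM in those of replicates 2 and 3. Summed macrophage markers (C1qa, C1qb, C1qc, Csf1r, Adgre1 and Cd68) reached 4549.9 to 10809.5 CPM in macrophages and 6.81 to 67.6 CPM elsewhere. Summed T cell markers (Cd3d, Cd3e, Cd3g and Trac) were at 2252 to 3425 CPM in the T classes and 0 to 76.1 CPM in B cells and macrophages. B cell markers (Cd79a, Cd79b and Ms4a1) were at 2688 to 3117 CPM in B cells but also at 316, 677 and 399 CPM in Treg, 305, 405 and 220 CPM in CD4 T cells and 209, 246 and 95.7 CPM in CD8 T cells. The rules of the classes used Cd3e, Cd79a, C1qa and C1qb, so part of the separation in these sums was set in advance. Markers of a second class were carried by 536 of 1612 Treg, 625 of 5858 CD4 T cells and 217 of 3199 CD8 T cells. These were at least 2 Cd79a UMIs or at least 3 UMIs of C1qa and C1qb. For Treg alone any Cd8a or Cd8b1 UMI also counted, so the Treg share cannot be set against the other shares. Macrophage values rest on 31, 10 and 27 cells.

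The clearest differences among the T cells were in Jak2 and Cish, while macrophages were set apart by high Socs3 and by Stat4 near the limit of detection. B cells had the lowest mean level of Jak2, Jak3, Socs1, Socs3 and Cish among the 5 classes. Of these genes, Jak3, Socs1 and Cish were not called different between B cells and macrophages.

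**Figure D1:**
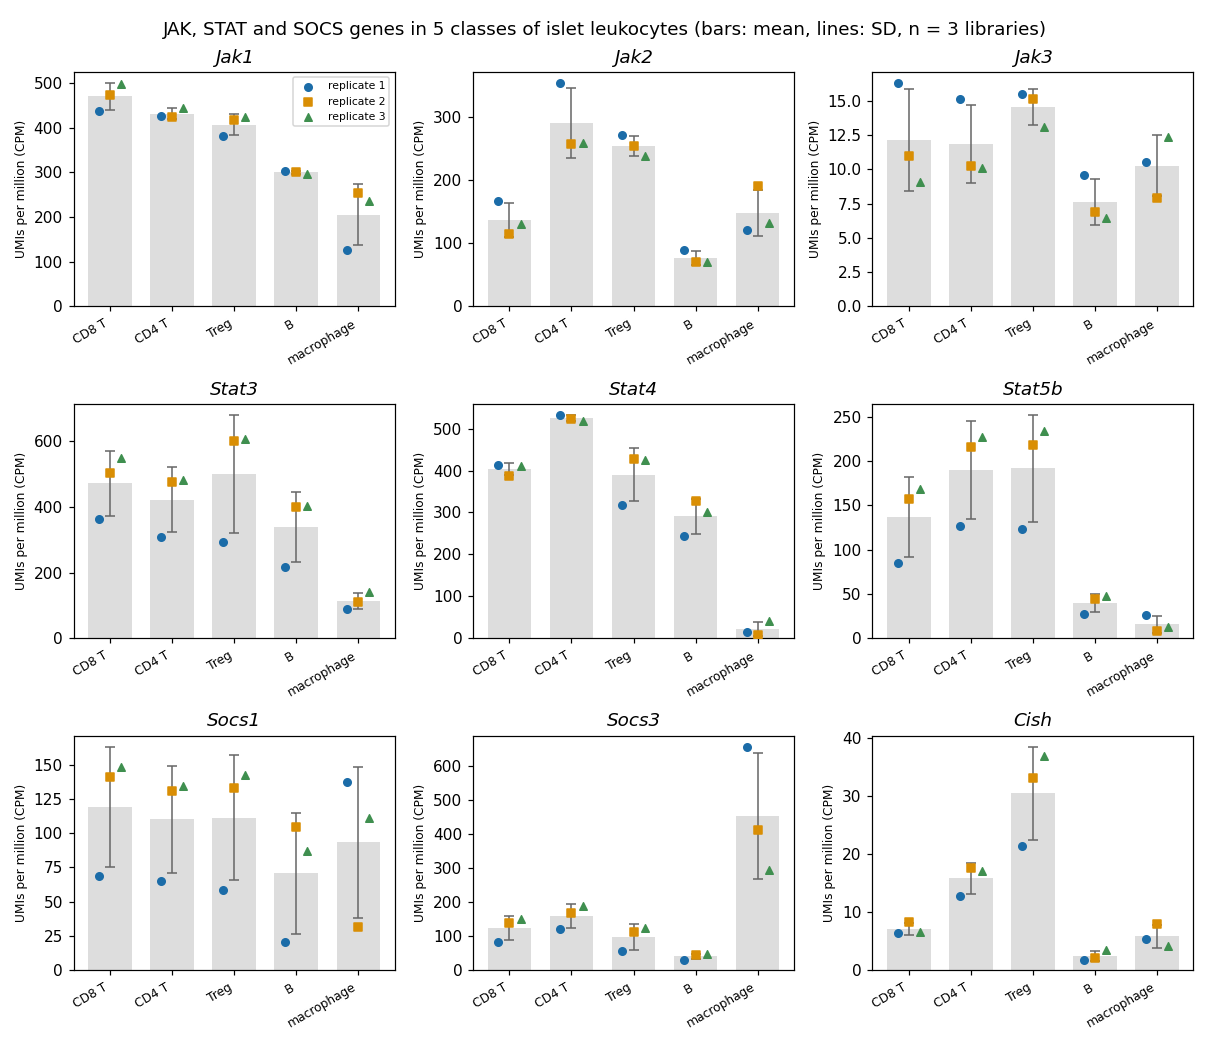
Levels of the 9 genes in CPM (linear axis from 0) in CD8 T cells, CD4 T cells, Treg, B cells and macrophages. Points are the 3 libraries, bars the means and lines the SD; Jak2 is highest in CD4 T cells (290.4 CPM) and Treg (254 CPM), Socs3 in macrophages (453 CPM) and Cish in Treg (30.4 CPM).

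Jak1, the kinase shared by most interferon and interleukin receptors (chromosome 4, 101152367 to 101265282, minus strand, GRCm38), had the most even level of the kinases in lymphocytes. It was at 438, 474 and 498 CPM in CD8 T cells, 425, 423 and 445 in CD4 T cells, and 381, 417 and 423 in Treg. B cells had 304, 301 and 297 CPM, below each T cell value, and macrophages 127, 254 and 235 CPM. In order of the means, neighbours from CD8 T cells (470.0 ± 30.1) through CD4 T cells (431 ± 12.1) and Treg (407 ± 23.1) to B cells (300.3 ± 3.56) were not called different, and macrophages (205 ± 68.4) were below B cells (log2 fold change -0.70, SE 0.15, adjusted p = 0.0020). The median fold change of all genes was -0.56 in that comparison, near the Jak1 value. It was -0.52 to -0.56 in each comparison with macrophages, whose sums held only 126156 to 242681 UMIs. These medians stand beside every macrophage difference given here, and genes of like level were not compared.

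Jak2, which serves the interferon gamma and interleukin 12 receptors (chromosome 19, 29251828 to 29313080, plus strand), was at 354, 258 and 259 CPM in CD4 T cells and 167, 115 and 130.3 CPM in CD8 T cells. No CD8 T value reached the lowest CD4 T value. The log2 fold change was 0.97 (SE 0.12, adjusted p = 4.2e-05), or 1.97-fold higher in CD4 T cells. Treg had 271, 254 and 238 CPM, also above all CD8 T values (log2 fold change 0.72, SE 0.12, adjusted p = 0.00042), and were not told apart from CD4 T cells (-0.25, 95% interval -0.48 to -0.03, adjusted p = 0.25). Macrophages (148 ± 37.0 CPM) and CD8 T cells (137 ± 26.7 CPM) overlapped, and B cells were lowest at 89.8, 70.1 and 70.5 CPM. The difference between macrophages and B cells (0.79, SE 0.17, adjusted p = 0.0019) was not past the threshold without replicate 2 (adjusted p = 0.055). It turned to -0.13 with the study's limits on cells and to -0.11 among cells of 2000 to 6000 UMIs, where macrophages rest on 1 library. That between macrophages and Treg was not past it without replicate 3 (adjusted p = 0.055).

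Jak3, the kinase of the common gamma chain receptors (chromosome 8, 71676296 to 71690575, plus strand), was counted at 6.43 to 16.3 CPM in lymphocytes. In the annotation it overlaps Insl3 on the same strand, so reads in the shared stretch may be lost or counted for either gene, and its level is uncertain. No difference between T cell classes was called, the largest being 0.28 for Treg against CD4 T cells (SE 0.13, edgeR adjusted p = 0.27). B cells, at 9.57, 6.89 and 6.43 CPM, were lower than CD8 T cells (log2 fold change -0.62), CD4 T cells (-0.50) and Treg (-0.78), with edgeR adjusted p-values of 0.0011, 0.0037 and 0.00022. The first of these was lost without replicate 2 (adjusted p = 0.051) and the second without replicate 2 or replicate 3 (both adjusted p = 0.067). In macrophages Jak3 rests on 6 UMIs.

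Among the STAT genes, Stat3, Stat4 and Stat5b were lower in macrophages than in each lymphocyte class, though for Stat5b against B cells the direction depended on the setting. Stat5b was lower in B cells than in each T cell class. Stat4, which carries the interleukin 12 signal (chromosome 1, 51987148 to 52107189, plus strand), was at 533, 523 and 518 CPM in CD4 T cells and at 413, 386 and 412 CPM in CD8 T cells. The spread within both classes was small, but the fold change of 0.27 (95% interval -0.01 to 0.55) was not past the threshold (adjusted p = 0.29). Treg, at 318, 428 and 425 CPM, were lower than CD4 T cells (-0.52, SE 0.14, adjusted p = 0.048), a call that did not hold without any 1 of the libraries (adjusted p = 0.13, 0.20 and 0.17). B cells had 244, 328 and 299.9 CPM, which was lower than in CD4 T cells (-0.74, SE 0.14, adjusted p = 0.00052), but not called against Treg (-0.22, adjusted p = 0.23).

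Macrophages had 15.9, 7.93 and 41.2 CPM of Stat4, or 14 UMIs in all. The fold change against B cells, the lowest lymphocyte class, was -3.66 (SE 0.28, adjusted p = 5.4e-08), 12.7-fold lower. After every cell was thinned to 1000 UMIs, 2.31 ± 2.01% of macrophages held a Stat4 UMI against 26.7 ± 2.63% of B cells and 36.1 ± 4.58% of CD4 T cells. Unthinned, the shares were 11.5%, 77.5% and 78.8%, at depths that differ between the classes.

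Stat5b, which carries signals of interleukins 2 and 7 (chromosome 11, 100780731 to 100850724, minus strand), was at 123, 218 and 234 CPM in Treg and 126, 216 and 228 CPM in CD4 T cells. CD8 T cells had 85.0, 157 and 168 CPM, lower than CD4 T cells in each library, with a difference just short of the threshold (CD4 T against CD8 T 0.37, SE 0.12, adjusted p = 0.055). Without replicate 1 it passed (0.35, adjusted p = 0.018), and without replicate 2 or replicate 3 it did not (adjusted p = 0.28 and 0.32). B cells held 27.8, 44.1 and 47.6 CPM, no value reaching the lowest T cell value, and were 4.34-fold lower than CD4 T cells (-2.12, SE 0.12, adjusted p = 1.6e-09). Macrophages had 9 Stat5b UMIs in all. Their difference from B cells (-1.43, adjusted p = 0.0063) was lost without replicate 2 (adjusted p = 0.063) or replicate 3 (adjusted p = 0.20).

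Stat3, the STAT of the interleukin 6, 10 and 21 receptors (chromosome 11, 100885098 to 100939540, minus strand), was at 362, 503 and 549 CPM in CD8 T cells and 307, 477 and 483 CPM in CD4 T cells. Treg had 293, 601 and 607 CPM and B cells 217, 401 and 402 CPM. In each of these classes replicate 1 was the lowest library, and the spread over libraries exceeded the differences between T cell classes, none of which was called. B cells were lower than CD8 T cells (-0.49, SE 0.12, adjusted p = 0.0025) and Treg (-0.34, SE 0.12, adjusted p = 0.024), the second not without replicate 2 (adjusted p = 0.15) or replicate 3 (adjusted p = 0.20). Macrophages, at 89.9, 111 and 140.1 CPM, were below all lymphocyte values and 3.16-fold lower than B cells (-1.66, SE 0.16, adjusted p = 7.7e-07).

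The inhibitors came next. Their promoters are shown because STAT proteins are known to induce these inhibitors. Each line gives the 250 bases before a transcription start in RefSeq (GRCm38.p6), 5′ to 3′, and capitals mark matches to TTCNNNGAA, the pattern bound by several STAT dimers, which reads the same on both strands. Socs3 is at chr11:117969367-117969616 (minus strand), Socs1 at chr16:10785537-10785786 (minus strand) and Cish at chr9:107296409-107296658 (plus strand).
Socs3: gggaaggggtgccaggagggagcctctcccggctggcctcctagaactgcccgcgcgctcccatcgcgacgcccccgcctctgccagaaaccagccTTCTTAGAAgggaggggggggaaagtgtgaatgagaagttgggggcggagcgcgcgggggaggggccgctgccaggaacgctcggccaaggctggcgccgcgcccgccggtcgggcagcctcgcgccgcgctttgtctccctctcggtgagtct
Socs1: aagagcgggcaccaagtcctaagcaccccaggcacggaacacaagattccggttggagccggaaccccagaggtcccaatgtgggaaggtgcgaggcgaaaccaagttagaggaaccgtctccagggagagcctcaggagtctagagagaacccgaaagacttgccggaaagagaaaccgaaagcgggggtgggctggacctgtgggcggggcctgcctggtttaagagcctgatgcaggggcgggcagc
Cish: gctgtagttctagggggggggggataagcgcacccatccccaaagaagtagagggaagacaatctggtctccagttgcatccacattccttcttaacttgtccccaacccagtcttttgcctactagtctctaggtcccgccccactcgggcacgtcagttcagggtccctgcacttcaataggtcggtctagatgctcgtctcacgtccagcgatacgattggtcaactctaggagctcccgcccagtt
The window of Socs3 held 1 match, whose first base lies 154 bases before the start. Among windows of this length, 2306 of 32851 (7.02%) held a match, and none of those of the other 8 genes did. A match is not a bound site, and other start sites of these genes are annotated outside the windows. In GENCODE the Socs3 gene begins at 117970047 on the minus strand and Cish at 107296026 on the plus strand. The windows of Socs3 and Cish thus lie inside the annotated genes, downstream of those outermost starts, and the bases before these were not searched.

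Cish, an inhibitor of interleukin 2 receptor and T cell receptor signalling (chromosome 9, 107296026 to 107302784, plus strand), formed a graded series in T cells. Treg had 21.4, 33.0 and 36.8 CPM, CD4 T cells 12.7, 17.6 and 17.1 CPM, and CD8 T cells 6.43, 8.20 and 6.50 CPM. No value of a class overlapped with the next. Treg were higher than CD4 T cells by 0.87 (SE 0.13, adjusted p = 0.0010), and CD4 T cells higher than CD8 T cells by 1.08 (SE 0.15, adjusted p = 0.00018), so that Treg stood 3.86-fold over CD8 T cells (1.95, SE 0.15, adjusted p = 3.9e-07). The step from CD4 T cells to Treg narrowly missed the threshold without replicate 2 (adjusted p = 0.071) or replicate 3 (adjusted p = 0.058). B cells, at 1.70, 2.13 and 3.37 CPM, were 11.2-fold lower than Treg (-3.49, SE 0.17, adjusted p = 2.8e-10). At equal depth 3.24 ± 1.11% of Treg, 1.65 ± 0.10% of CD4 T cells, 0.77 ± 0.32% of CD8 T cells and 0.12 ± 0.09% of B cells held a Cish UMI. The unthinned shares were 19.9%, 8.82%, 4.43% and 1.36%, and the median depth of Treg (4618, 9843 and 9055 UMIs) was above that of CD4 T cells (4549, 6423 and 5520 UMIs) in every library. Macrophages gave 3 Cish UMIs, and the pooled ratio of Treg to macrophages was 6.21 (exact 95% interval 2.11 to 30.2, counting error only). The edgeR call for that pair (-2.42, adjusted p = 0.0027) was lost without replicate 3 (adjusted p = 0.057).

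Socs3, which blocks signalling through the shared receptor chain of interleukin 6 (chromosome 11, 117966079 to 117970047, minus strand), had its highest level in macrophages, at 655, 412 and 293 CPM. All 3 values were above every lymphocyte value, which ranged from 30.6 to 189 CPM. The fold changes were 1.58 against CD4 T cells (SE 0.30, adjusted p = 0.00067), 1.85 against CD8 T cells, 2.38 against Treg and 3.45 against B cells (SE 0.32, adjusted p = 5.0e-07, 10.9-fold). These 4 calls held in all 12 alternative settings. The median of all genes was -0.52 to -0.56 in the comparisons with macrophages, opposite in sign to the Socs3 fold changes. The summed level of 10 immediate early and heat shock genes was 4879, 1062 and 7594 CPM in macrophages and 816 to 1660.4 CPM in lymphocytes, and islet endocrine markers were at 143, 7.93 and 1372 CPM in macrophages. Their part in the Socs3 level was not tested.

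In lymphocytes Socs3 was at 119.8, 168 and 189 CPM in CD4 T cells, 82.2, 137 and 149 CPM in CD8 T cells and 54.6, 113 and 124 CPM in Treg. The difference of Treg from CD4 T cells was -0.80 (95% interval -1.30 to -0.30) and not past the threshold (adjusted p = 0.086), although Treg were lower in each library. Without replicate 1 it was (-0.70, adjusted p = 0.0020). B cells were lowest at 30.6, 42.9 and 46.7 CPM, 3.64-fold below CD4 T cells (-1.86, SE 0.26, adjusted p = 2.0e-05). Their difference from Treg (-1.07, adjusted p = 0.0034) was lost without replicate 2 (adjusted p = 0.056).

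Socs1, a potent inhibitor of interferon gamma signalling (chromosome 16, 10782240 to 10785536, minus strand), varied more between libraries than between T cell classes. It was at 68.7, 141 and 148 CPM in CD8 T cells, 65.2, 131 and 134 CPM in CD4 T cells and 58.7, 133 and 142 CPM in Treg, and no T cell comparison was called. B cells had 20.4, 105 and 87.1 CPM, lower than CD8 T cells (-0.86, SE 0.26, adjusted p = 0.013) and CD4 T cells (-0.65, SE 0.26, adjusted p = 0.048). Neither call held without replicate 3 (adjusted p = 0.095 and 0.18). Macrophages had 137, 31.7 and 111 CPM, a range that spans the lymphocyte means.

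In counts over the set, 2 of 9 genes were higher in CD4 T cells than in CD8 T cells (Jak2 and Cish), and none lower, beside 11.2% of all genes called in either direction, 6.61% higher and 4.55% lower. Treg differed from CD4 T cells in 2 of 9 (Cish higher, Stat4 lower; 5.77% of all genes, 3.48% higher and 2.29% lower) and from CD8 T cells in 3 of 9 (Cish and Jak2 higher, Jak1 lower at -0.40, adjusted p = 0.035; 16.7%, 9.86% higher and 6.81% lower). The Jak1 call was lost without replicate 2 (adjusted p = 0.29) or replicate 3 (adjusted p = 0.26) and with plain library totals (adjusted p = 0.29). B cells were lower than CD8 T cells in 9 of 9, where 48.7% of all genes were called, 22.3% higher and 26.5% lower. They were lower than CD4 T cells in 8 of 9, all but Stat3 (51.6% called, 24.4% higher and 27.2% lower), and lower than Treg in 6 of 9, all but Jak1, Stat4 and Socs1 (48.4% called, 22.5% higher and 25.9% lower). Some of the smaller B cell differences depend on single libraries: Jak1 against CD4 T cells (-0.39, adjusted p = 0.013) missed the threshold without replicate 2 (adjusted p = 0.10) or replicate 3 (adjusted p = 0.14), and Stat4 against CD8 T cells (-0.46, adjusted p = 0.015) without replicate 1 (adjusted p = 0.052) or replicate 3 (adjusted p = 0.057). Macrophages differed from CD8 T cells in 5 of 9, 1 higher and 4 lower (37% of all genes called, 15.3% higher and 21.7% lower), and from CD4 T cells in 6, 1 higher and 5 lower (35.8%, 15% and 20.8%). They differed from Treg in 7, 1 higher and 6 lower (33.7%, 14% and 19.8%), and from B cells in 6, 2 higher and 4 lower (36%, 15.4% and 20.6%). Among these calls only Socs3 was higher in macrophages, and Jak2 against B cells, whose direction turned in 2 of the alternatives.

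**Figure D2:**
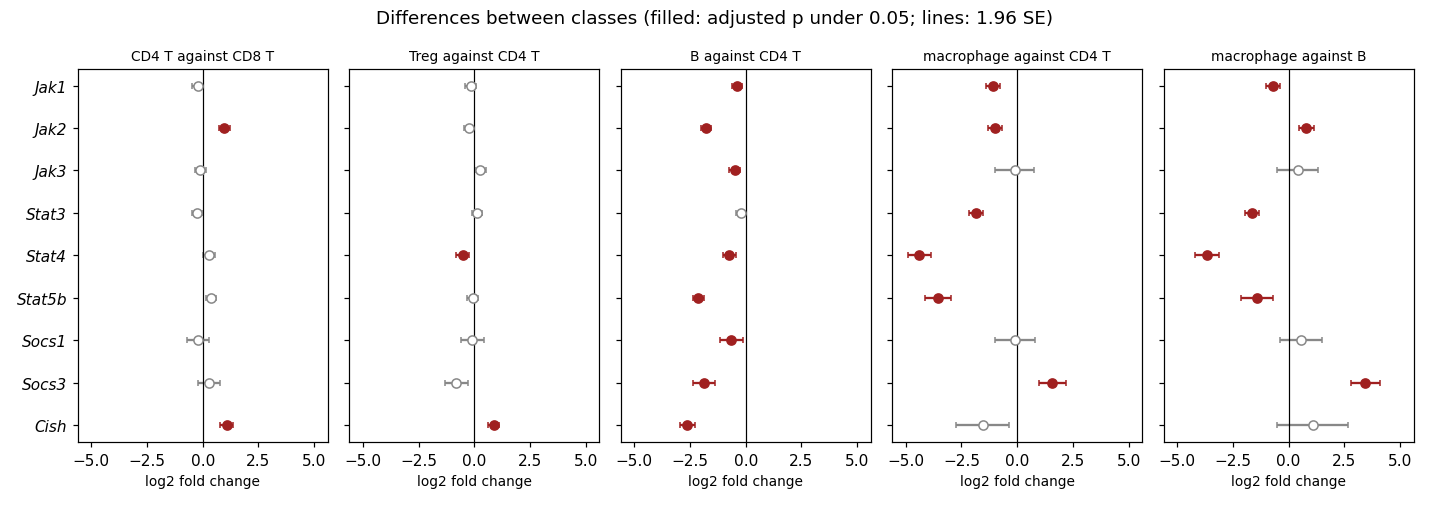
Log2 fold changes of the 9 genes in 5 of the class comparisons (x axis), with lines for 95% intervals. Filled points passed an adjusted p of 0.05: Jak2 and Cish rose from CD8 to CD4 T cells, 8 of 9 genes were lower in B cells than in CD4 T cells, and Socs3 was higher in macrophages than in CD4 T cells (1.58) and B cells (3.45).

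T cells were then split by PD-1, the receptor that restrains activated T cells and is encoded by Pdcd1. Cells with at least 1 Pdcd1 UMI (PD-1+) numbered 1066 of 3199 CD8 T cells, 2003 of 5858 CD4 T cells and 888 of 1612 Treg. A cell with more UMIs is more likely to show a Pdcd1 UMI, and PD-1+ cells were deeper, for example with median depths of 5865, 8656.5 and 7037 UMIs against 4896, 7309 and 6240 UMIs in PD-1- CD8 T cells.

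PD-1+ CD8 T cells had more Stat3 and Jak2 and less Socs1, Socs3 and Stat5b. Stat3 was at 471, 808 and 867 CPM in PD-1+ and 256, 353 and 368 CPM in PD-1- CD8 T cells, without overlap. The log2 fold change was 0.94 (SE 0.10, adjusted p = 4.3e-06), 1.92-fold. Socs1 was at 65.1, 93.1 and 97.1 CPM in PD-1+ and 72.2, 165 and 177 CPM in PD-1- cells, lower in each library (-0.84, SE 0.13, adjusted p = 0.00030). Socs3 was at 62.3, 106 and 114 CPM against 102, 152 and 169.5 CPM, also lower in each library (-0.76, SE 0.12, adjusted p = 0.00025). Socs1 and Socs3 thus moved opposite to Stat3 in these cells, by this test, though the Socs1 difference was small in replicate 1. Cish, the other inhibitor of the set, did not share this direction. It was at 8.43, 11.6 and 6.95 CPM in PD-1+ and 4.51, 6.53 and 6.24 CPM in PD-1- cells. Its fold change was not called (0.41, SE 0.22, adjusted p = 0.26). Jak2 was at 168, 195 and 190.2 CPM against 165, 75.0 and 96.1 CPM (0.65, SE 0.17, adjusted p = 0.015), a difference that was nearly absent in replicate 1. Stat5b was lower by -0.27 (adjusted p = 0.047), a call lost under 10 of the 12 alternatives, among them plain library totals (-0.09, adjusted p = 0.54). In all, 2 of 9 genes were higher and 3 lower, beside 13.7% of all genes called, 6.25% higher and 7.43% lower.

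PD-1+ CD4 T cells shared the rise of Stat3 and Jak2. Stat3 was at 378, 685 and 674 CPM against 266, 337 and 352 CPM in PD-1- cells (0.66, SE 0.09, adjusted p = 9.9e-05), again without overlap. Jak2 was at 388, 377 and 375 CPM against 335, 178 and 180.1 CPM (0.62, SE 0.16, adjusted p = 0.012). At equal depth, 32.7 ± 1.44% of PD-1+ and 18.8 ± 8.90% of PD-1- cells held a Jak2 UMI (unthinned 82.5% and 54.2%). Stat4 was at 541, 708 and 726 CPM against 528, 399.5 and 376 CPM, a fold change of 0.43 (SE 0.14) with an adjusted p of 0.0498 in edgeR. Jak1 (-0.29, SE 0.06, adjusted p = 0.0032) and Stat5b (-0.46, SE 0.08, adjusted p = 0.00080) were lower, Stat5b at 112, 189 and 203 CPM against 134, 234 and 244 CPM. The Jak1 call was lost with plain library totals (-0.13, adjusted p = 0.21). Of 3 plasma cell markers, Jchain was higher in PD-1+ CD4 T cells (4.79, SE 1.5, adjusted p = 0.037) and Mzb1 and Sdc1 were not called. Their summed level was 325, 876 and 805 CPM in PD-1+ and 211, 48.8 and 19.3 CPM in PD-1- cells, and its part in these results was not tested. In all, 3 of 9 genes were higher and 2 lower, beside 15.6% of all genes called, 7.54% higher and 8.01% lower.

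In Treg only Stat5b was called, lower in PD-1+ cells at 86.7, 209 and 222 CPM against 157, 239.8 and 258 CPM (-0.41, SE 0.09, adjusted p = 0.040), beside 0.511% of all genes called, 0.102% higher and 0.409% lower. It was lost without replicate 2 (adjusted p = 0.34), without replicate 3 (adjusted p = 0.57), among cells of 2000 to 6000 UMIs (adjusted p = 0.69), with the study's limits (adjusted p = 0.79), with plain library totals (adjusted p = 0.17), with no library block (adjusted p = 1.00) and with cells that carry markers of a second class left out (adjusted p = 0.053). Stat3 in PD-1+ Treg was at 290.0, 668 and 687 CPM against 296, 452 and 453 CPM, and its fold change of 0.37 (95% interval 0.18 to 0.56) did not pass (adjusted p = 0.12). Without replicate 1 it did (0.53, adjusted p = 0.00027), and Stat5b and Socs1 passed as well.

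None of the 9 genes passed the test of whether the PD-1 difference itself differed between T cell classes. For Socs1, CD4 T cells had 80.3, 136 and 141 CPM with PD-1 and 56.6, 128 and 130.2 CPM without. In CPM this direction was opposite to that in CD8 T cells in every library, with log2 ratios of 0.50, 0.08 and 0.11. Those of replicates 2 and 3 were below the median shift of all genes given above for CPM. A rise of Socs1 in PD-1+ CD4 T cells is therefore not shown. The difference of differences was 0.86 (SE 0.18, adjusted p = 0.12), and past the threshold without replicate 1 (0.95, adjusted p = 0.00021) and in DESeq2 (adjusted p = 0.015). For Stat3, Treg against CD8 T cells gave -0.57 (SE 0.14, adjusted p = 0.055), and -0.49 without replicate 1 (adjusted p = 0.0031). Among all genes, 2, 87 and 38 passed in the comparisons of CD4 T with CD8 T cells, Treg with CD8 T cells and Treg with CD4 T cells (0.0186%, 0.808% and 0.353%; in the second 0.436% were higher). At an unadjusted p under 0.05 they were 697, 1316 and 1099.

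These PD-1 results depend on pairing the classes within libraries. With no library block, none of the 9 genes passed in CD8 T cells, CD4 T cells or Treg (Stat3 adjusted p = 0.18 and 0.45 in CD8 and CD4 T cells), while all called values kept their sign. They also depend on 3 libraries: without replicate 2, or without replicate 3, 2 genes passed in CD8 T cells (Stat3 and Socs3) and 1 in CD4 T cells (Stat3). Jak2 in CD8 T cells then had adjusted p-values of 0.33 and 0.25 and Socs1 of 0.059 and 0.053. In CD4 T cells, Jak1 had 0.12 and 0.15, Jak2 0.19 and 0.30, Stat4 0.42 and 0.54, and Stat5b 0.075 and 0.089. Among cells of 2000 to 6000 UMIs, where PD-1+ and PD-1- cells are closer in depth, Stat3 was higher by 1.33 in CD8 T cells (adjusted p = 5.1e-09) and by 0.99 in CD4 T cells (adjusted p = 2.2e-07), and Socs1 and Socs3 in CD8 T cells were lower by -1.11 and -0.89. Summed cell cycle genes were higher in PD-1+ CD8 T cells (1014, 161 and 136 CPM against 646, 95.9 and 73.1 CPM). Of these genes only Mki67 was called (0.81, edgeR adjusted p = 0.017), and Stmn1 (0.56), Top2a (0.49) and Birc5 (0.58) were not. Immediate early and heat shock genes were lower there (1093, 691 and 739 CPM against 1531, 878 and 969 CPM). In PD-1+ CD4 T cells the cell cycle genes Mki67 (1.405), Top2a (0.80) and Birc5 (0.98) were higher. Their edgeR adjusted p-values were 0.00019, 0.015 and 0.040, and Stmn1 (0.24) was not called. The part of all these genes in the PD-1 results was not tested.

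**Figure D3:**
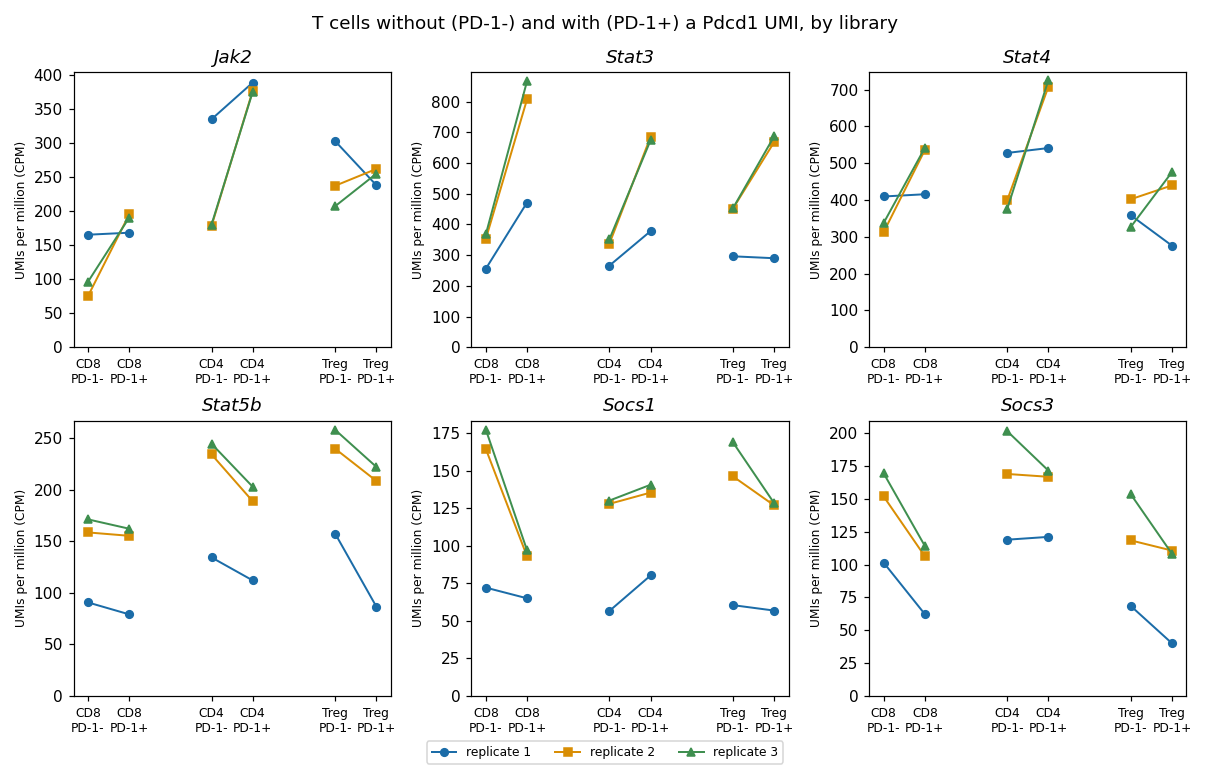
Levels of Jak2, Stat3, Stat4, Stat5b, Socs1 and Socs3 in CPM (linear axis from 0) in T cells without (PD-1-) and with (PD-1+) a Pdcd1 UMI, each line joining the values of 1 library. Stat3 rises in all libraries in CD8 and CD4 T cells, Socs1 falls in CD8 T cells and not in CD4 T cells, and in replicate 1 Jak2 and Stat4 are nearly level in CD8 T cells and lower in PD-1+ than in PD-1- Treg (238 against 303 CPM and 276 against 359 CPM).

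Replicate 1 held less Stat3, Stat5b, Socs1 and Socs3 than the other libraries in each of CD8 T cells, CD4 T cells, Treg and B cells. Its level divided by the mean of replicates 2 and 3 was between 0.213 and 0.687 for these 4 genes. Jak2 and Jak3 went the other way, above both other libraries in these 4 classes, with ratios of 1.10 to 1.62. Macrophages did not show the lower Stat5b, Socs1 and Socs3 of replicate 1, but on few cells and, for Stat5b and Socs1, few counts. In the order of the replicates, their Stat5b rests on 5, 1 and 3 UMIs and their Socs1 on 26, 4 and 27. Their Socs3 rests on 124, 52 and 71 UMIs. The higher cell cycle sums of replicate 1 moved with these values, as did its immediate early and heat shock sums, which were 1316 to 1660.4 CPM in these 4 classes and 816 to 1207 CPM in those of replicates 2 and 3. The largest part of the latter sums was Junb (1152, 683 and 755 CPM in CD4 T cells). Junb, Fos and Fosb were higher in replicate 1 in each of these classes. Not every gene of the list was: Hspa1a was at 1.37, 2.48 and 11.3 CPM in Treg, and Jun at 37.7, 38.9 and 37.7 CPM in CD4 T cells. The part of the cell cycle, immediate early and heat shock genes was not tested. The sources used here do not say which library belongs to which of the study's 2 experiments.

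**Figure D4:**
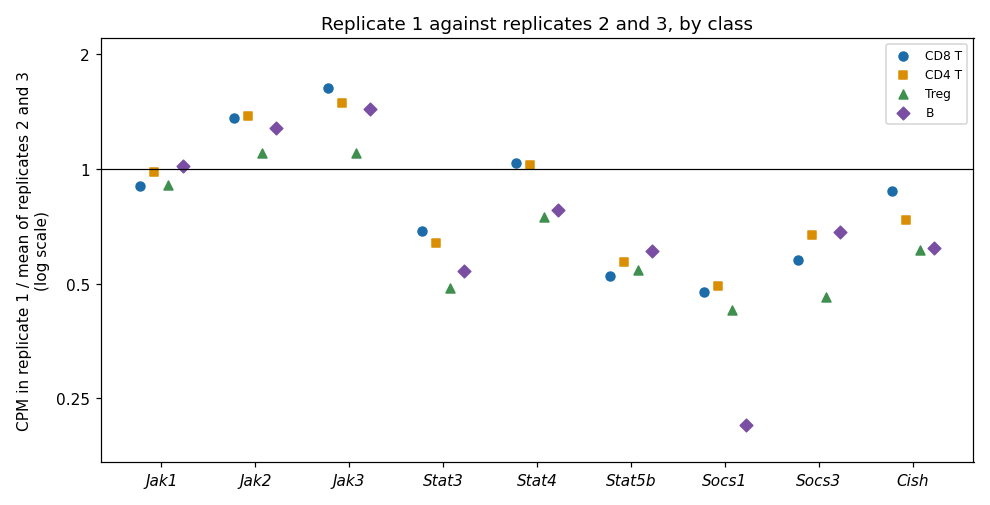
CPM in replicate 1 divided by the mean of replicates 2 and 3 for each gene (log axis), in CD8 T cells, CD4 T cells, Treg and B cells. Stat3, Stat5b, Socs1 and Socs3 lie below 1 in all 4 classes and Jak2 and Jak3 above 1; the lowest point is Socs1 in B cells (0.213).

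The rest of the pathway was read from lists of receptors, further signalling genes, brakes and targets. The counts stand beside the same shares of all genes called: 11.2% for CD4 T against CD8 T cells, 5.77% for Treg against CD4 T cells, 51.6% for B cells against CD4 T cells, and by PD-1 13.7% in CD8 T cells, 15.6% in CD4 T cells and 0.511% in Treg. Of 19 cytokine receptor genes that work through JAKs, 3 were higher in Treg than in CD4 T cells: Il2ra, the high-affinity interleukin 2 receptor chain that also serves as a Treg marker (2.07, SE 0.36), Il2rb (0.74) and Il10rb (0.47). Another 5 were lower, led by Il7r (-1.10), Il12rb2 (-0.78) and Il6ra (-0.75). CD4 T cells were higher than CD8 T cells in Il6ra (1.39) and Ifngr2 (0.50) and lower in Il15ra (-1.26), Il2rb (-0.90) and Il12rb2 (-0.77). In PD-1+ CD8 T cells, 2 receptor genes were higher (Il10ra 1.16, Il10rb 0.42) and 8 lower, led by Il6ra (-1.89), Il12rb2 (-1.66) and Ifngr2 (-1.63). In PD-1+ CD4 T cells, 2 were higher (Il2rb 0.89, Ifnar2 0.36) and 9 lower, led by Ifngr2 (-1.5), Il7r (-1.41) and Il6ra (-0.99). The medians of the 19 genes were -0.31 and -0.20, beside -0.01 over all genes in both. In PD-1+ Treg only Ifngr2 was called (-0.50), and the PD-1 difference of Il7r and Ifngr2 differed between Treg and CD4 T cells (1.21 and 1.00, adjusted p = 0.0043 and 0.0041 in edgeR).

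Of 9 other JAK, STAT and SOCS genes, Socs2, a further feedback inhibitor, was higher in CD4 T cells (34.7, 20.2 and 15.6 CPM) than in CD8 T cells (4.37, 1.58 and 3.61 CPM; 2.72, SE 0.33, adjusted p = 5.2e-05). It was also higher in PD-1+ than in PD-1- CD4 T cells (1.23), as were Socs7 (0.55) and Socs5 (0.52), while Stat2 (-0.34) and Stat6 (-0.28) were lower. None of the 9 was called between Treg and CD4 T cells or by PD-1 in CD8 T cells. Among 10 other brakes on the pathway, which are phosphatases, PIAS proteins and an adaptor, 1 was called between CD4 T and CD8 T cells (Ptpn11, 0.54) and 1 between Treg and CD4 T cells (Ptpn11, -0.66). In B cells against CD4 T cells, 3 were higher (Ptpn6 2.12, Sh2b3 1.72, Ptpn1 0.32) and 3 lower (Ptpn11 -1.0, Ptprc -0.58, Pias2 -0.49). Tests of these brakes by PD-1 are not given here, and their levels went in both directions. In CD8 T cells Ptpn1 was at 234, 208 and 218 CPM in PD-1+ and 166, 123 and 136 CPM in PD-1- cells. Pias2 was at 11.2, 12.4 and 13.7 CPM in PD-1+ and 21.7, 14.3 and 19.0 CPM in PD-1- CD8 T cells.

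Of 10 known STAT5 targets, 3 were higher in Treg than in CD4 T cells (Il2ra 2.07, Bcl2l1 0.82, Myc 0.63) and 1 was lower (Ccnd3 -0.37). In PD-1+ CD8 T cells 1 was higher (Bcl2l1 0.72) and 4 lower, led by Pim2 (-0.83), Bcl2 (-0.67) and Pim1 (-0.57). In PD-1+ CD4 T cells Bcl2l1 (1.27) and Socs2 (1.23) were higher, and Pim2 (-0.57), Pim1 (-0.51) and Ccnd3 (-0.40) lower. Of 8 genes induced by interferons or through STAT3, among them Gbp2 and Irf1, 5 were lower in PD-1+ CD8 T cells, led by Gbp2 (-1.55), Bcl3 (-0.78) and Irf1 (-0.55), and none was higher, beside 7.43% of all genes called lower. In PD-1+ CD4 T cells 5 were lower, led by Gbp2 (-1.27), Irf1 (-0.59) and Bcl3 (-0.41), and Batf was higher (0.56). All 8 were higher in macrophages than in B cells, led by Icam1 (3.01), Gbp2 (2.25) and Irf1 (2.05), beside 15.4% of all genes called higher in that comparison. Junb stands in both this list and that of immediate early genes.

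The genes whose log2(CPM + 1) pattern was most like that of a member over 24 sums (3 T cell classes split by Pdcd1, B cells and macrophages in 3 libraries) were Gimap3 for Jak1 (r = 0.96), Hif1a for Jak2 (0.94), Ube2a for Jak3 (0.87), Slc25a3 for Stat3 (0.95), Ccni for Stat4 (0.98), Camk4 for Stat5b (0.97), Tmem120a for Socs1 (0.78), Zfp703 for Socs3 (0.89) and Secisbp2l for Cish (0.91). The next most alike were Txk and Plcxd2 for Jak1, Gna13 and Uhrf2 for Jak2, Mtch1 and Tpm4 for Jak3, Uqcrc1 and Isy1 for Stat3, Csnk1g2 and 2310033P09Rik for Stat4, Fryl and Pja1 for Stat5b, Igtp and Cd164 for Socs1, Npc2 and Isg15 for Socs3, and Slc16a3 and Smarce1 for Cish. The sums share libraries and depth, so these values are descriptions. Within the 18 T cell sums, Socs1 ran with Stat5b (r = 0.78) and with Socs3 (r = 0.77), and Stat5b with Socs3 (r = 0.70). These genes were low together in replicate 1. Stat3 was also low there, but ran less closely with Stat5b (r = 0.36), Socs1 (r = 0.38) and Socs3 (r = 0.19).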

How the data were processed

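Live CD45+ cells from islets were captured with 10x Genomics 3' chemistry. The authors deposited, for each of the 3 libraries, filtered raw UMI counts per gene and cell, made with Cell Ranger 6.0.1 on mm10, with no normalization. The libraries differ in depth, and counts of low genes in the 68 macrophages are the least precise. Intervals on ratios of counts are exact and cover counting error only.

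Cells with under 1000 UMIs or at least 10% mitochondrial UMIs were dropped, and the rest were classed by marker UMIs. No doublet caller was run. Cells that carry markers of a second class were left out in 1 alternative. UMIs were summed per library and class (15 sums, or 18 for T cells split by Pdcd1). Sums were tested in R 4.3.3 with edgeR 4.0.16 (filterByExpr, TMM, quasi-likelihood fit, library as block) and Benjamini-Hochberg adjustment over all genes, with a threshold of 0.05. Standard errors and 95% intervals belong to these fits. With 3 pairs of libraries an exact test of shares cannot reach 0.05, so shares, thinned to 1000 UMIs per cell, carry no test. The code was tested on simulated data.

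The block reflects that all classes of a library come from the same pooled mice. Deviations from class means correlated at 0.03 to 0.68 (mean 0.29, 30 pairs) within libraries for the 5 classes and at 0.26 to 0.69 (mean 0.45, 45 pairs) for the split T cells, and had a mean of -0.13 and -0.20 between libraries. Deviations from a mean cancel out over the libraries, which by itself pulls the values between libraries to the negative side. P-values measure only how class differences vary from library to library, after the block has removed the level shared by the classes of a library.

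The members, gene lists and tests were chosen with earlier results of these data known. All 9 members are named. Of the further lists, 1 signalling gene and 1 B cell marker are not reported here, and the counts and the sum given leave them out. Of each further list, up to 3 genes per direction with the largest fold change among those past the threshold are named, and of the genes at a mean of at least 20 CPM, the 3 most alike in pattern to each member. Positions are from GENCODE M21 and promoters from RefSeq, both on GRCm38. Alternatives were no block, DESeq2 1.42.0, RLE factors, no filter on low counts, each library left out, the study's limits on cells (200 to 5000 genes, at most 6000 UMIs, under 5% mitochondrial and at least 5% ribosomal UMIs), cells without markers of a second class, cells of 2000 to 6000 UMIs, cells of 2 classes kept in both and, chosen after seeing the data, plain library totals.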

Additional observations from a re-analysis of the deposited data

How the results depend on the processing

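Of 65 calls over 144 comparisons of a member, 35 held in all 12 alternatives. Of 82 changes of sign, 78 were in values past the threshold in neither fit. The other 4 concern macrophages against B cells: Jak2 was -0.13 and Stat5b 0.042 with the study's limits on cells, and -0.11 and 0.038 among cells of 2000 to 6000 UMIs. There macrophages rest on 1 library, whose lone sum is assumed to vary like the others.

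With no replicate block, 22 calls were lost and all 65 kept their sign. Pairing classes within a library thus mattered for the number of members called: without it 0 were called for Treg against CD4 T cells, 5 for B cells against CD4 T cells, and 0 by PD-1 in CD8 T cells, CD4 T cells and Treg. Genes called by PD-1 were then 191 in CD8 T cells, 180 in CD4 T cells and 1 in Treg, in place of 1473, 1675 and 55, and 105 in place of 698 for Treg against CD4 T cells.

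By PD-1 in Treg, 3 members were called by DESeq2 and with no low-count filter, and 0 with plain library totals, with the study's limits, with second-class cells left out and among cells of 2000 to 6000 UMIs. For Treg against CD4 T cells, 1 was called with plain totals and with the study's limits. For the PD-1 difference in CD4 T against CD8 T cells, 1 was called by DESeq2 and 2 with no filter. For that difference in Treg against CD8 T cells it was 1 by DESeq2, with the study's limits and among cells of 2000 to 6000 UMIs, and 3 with no filter. For that in Treg against CD4 T cells it was 1 with no filter. The cause was not tested.

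With each library left out in turn, the members called ranged from 0 to 2 for Treg against CD4 T cells, 2 to 5 for Treg against CD8 T cells, 5 to 8 for B cells against CD4 T cells, 2 to 6 by PD-1 in CD8 T cells, 1 to 6 in CD4 T cells and 0 to 3 in Treg, and from 0 to 1, 0 to 3 and 0 to 1 for the 3 differences between classes. Lost calls numbered 2, 18 and 20 without replicates 1, 2 and 3, and gained calls 15, 2 and 0. Without replicate 1, genes called by PD-1 in Treg were 181, and with DESeq2 110.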
